A study of Mus musculus with 6 samples.

Results

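The genes described here are 10 members of the AP-1 and immediate early class: Fos, Fosb, Fosl1, Fosl2, Jun, Junb, Jund, Egr1, Atf3 and Dusp1. They were chosen by name, with earlier results of these data known. The platform's gene symbols gave 12 probes for 9 of them, out of 19057 genes measured, and Fosl1 was not analysed here. Transcripts were profiled on Illumina arrays in organoids of the mouse small intestine, which are epithelial structures that grow from crypts in a gel. The 3 control samples came from organoids of the strain labelled Villin-Cre, and the 3 Snai1 knockout samples from the strain labelled Villin-Cre, Snai1fl/fl. Both groups carried the Cre transgene, which the Villin promoter drives in the intestinal epithelium, and both received tamoxifen (0.5 µM) for 24 hours, so neither agent differs between them. The labels do not give the age or sex of the mice, or say whether the replicates of a group were separate animals, passages or wells, so the spread behind each p-value may be technical.

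Jun and Fos family proteins pair through leucine zippers to form the transcription factor AP-1, which binds the sequence TGAGTCA or its close relatives. The genes are called immediate early because signals such as growth factors, stress or handling switch them on within minutes through MAP kinases and factors already present in the cell, with no need for new protein. In the intestinal epithelium this module follows receptor signalling in the crypt and responds to injury, and it also rises when tissue is cut or dissociated. Snai1, the gene targeted in the knockout, encodes a zinc-finger repressor that binds the E-box CAGGTG and is best known for silencing E-cadherin.

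The start regions of 3 members are shown because their windows hold letters that bear on these inputs. Fosb has the Snail E-box, while Fos and Dusp1 have the core of the CRE, the site through which CREB and ATF proteins act. RefSeq windows (GRCm38.p6, 250 bases before to 50 after the start) were found for 8 of the members. The first window spans chr7:19310046-19310295 on the minus strand, the second chr12:85473640-85473889 on the plus strand and the third chr17:26508473-26508722 on the minus strand. Each is read 5′ to 3′ in the direction of the gene and ends just before its start, and the capitals mark the motifs.
Fosb: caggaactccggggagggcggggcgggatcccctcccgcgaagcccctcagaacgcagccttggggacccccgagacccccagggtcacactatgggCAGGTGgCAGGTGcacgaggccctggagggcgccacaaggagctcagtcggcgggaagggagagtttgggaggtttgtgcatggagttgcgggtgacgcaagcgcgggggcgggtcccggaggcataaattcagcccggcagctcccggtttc
Fos: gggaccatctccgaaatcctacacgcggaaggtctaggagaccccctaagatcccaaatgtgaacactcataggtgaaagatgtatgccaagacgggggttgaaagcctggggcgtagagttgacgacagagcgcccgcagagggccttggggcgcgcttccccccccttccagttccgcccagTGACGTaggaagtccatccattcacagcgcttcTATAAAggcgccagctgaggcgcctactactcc
Dusp1: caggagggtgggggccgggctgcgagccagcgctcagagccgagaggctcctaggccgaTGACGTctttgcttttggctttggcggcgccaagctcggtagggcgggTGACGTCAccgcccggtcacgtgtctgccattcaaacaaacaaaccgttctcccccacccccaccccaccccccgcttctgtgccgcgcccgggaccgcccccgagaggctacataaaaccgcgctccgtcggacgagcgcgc

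Motifs were searched on both strands of the 300 bases. In Fosb, CAGGTG began at -153 and again at -146, counted back from the start. It was the only member window of the 8 with these letters, which 20.2% of all 32851 windows hold. The full CRE, TGACGTCA, lay at -143 in Dusp1 and in no other member window, and 1.79% of all windows hold it. Its shorter core, TGACGT, which every full CRE contains, was found in 3 member windows: at -66 in Fos, at -191 and within the full site in Dusp1, and at -8 on the other strand in Atf3. The share among all windows was 7.51%. The TATA box letters TATAAA began at -33 in Fos and at 1 in Junb, against 13.6% of all windows. None of the 8 held TGAGTCA or TGACTCA (5.2% of all windows) or a CArG box, the site of serum response factor (1.63% of all windows). Sequence outside the windows was not searched, and Egr1 and Fosl1 had no window. The lack of a match here therefore does not show that a gene lacks the site. The matches listed describe letters only.

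Levels are given as deposited, on a log scale taken as log2, where 1 unit is a doubling if that base holds. Each gene is read from its brightest probe. The median of all values was 7.87, the lowest 7.710 and the upper quartile 8.27, so values near 7.9 lie at the compressed lower end of the scale, where differences are understated by an unknown amount. By mean over the 6 arrays, 7 members lay above the upper quartile: Fos, Fosl2, Jun, Junb, Jund, Egr1 and Dusp1. Fosb and Atf3 lay below it. Pairwise r between arrays was 0.994 to 0.997 across probes. Of 12 epithelial markers, 10 lay above the upper quartile, and Epcam and Fabp1 did not. All measured markers of fibroblasts (8 genes), immune cells (6), endothelium (5) and smooth muscle (5) lay below it, the highest being Cd14 at 8.12. The Snai1 probes read 7.82 to 7.96 over the 6 arrays, with overlapping groups, so the knockout could not be checked from them.

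Between knockout and control, none of the 9 measured members passed limma's test at an adjusted p under 0.05 (Benjamini-Hochberg, all 19057 genes), where 0.131% of all genes did. With the replicate number as a block there was likewise none, against 0.0472% of all genes. Egr1 and Dusp1 had the largest differences and the only unadjusted p-values under 0.05, with the block or without it, a level that 7.22% of all genes reached without the block and 10.9% with it. Among the 6969 genes above the upper quartile, where both lie, 580 higher and 459 lower reached it without the block, and 979 and 818 with it. At the level of probes, none of the 12 passed (0.0883% of all 45281 did), and 3 had an unadjusted p under 0.05, beside 6.23% of all probes. Both were also the only members whose groups did not overlap. In both, all 3 knockout arrays lay above all 3 control arrays, as for 6.2% of all genes and 8.38% of the 6969 genes above the upper quartile. In all, 6 members had a higher mean in the knockout and 3 a lower one, beside 49.3% of all genes with a higher mean, and the median member difference was 0.039, against -0.00057 over all genes. In such bulk samples, fewer cells of a type and less RNA per cell cannot be told apart.

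Egr1, a zinc-finger transcription factor and a classic readout of the ERK branch of MAP kinase signalling, read 11.28, 11.29 and 11.47 on control arrays 1 to 3 and 11.57, 11.48 and 11.57 on knockout arrays 1 to 3. Its lowest knockout value lay just above its highest control value, and control replicate 3 lay nearer to the knockout arrays than to the other controls. The difference was 0.19 ± 0.06 (SE; 95% interval 0.049 to 0.33), or 1.14-fold, with an adjusted p of 0.51 (limma) and 0.23 with the replicate block. Within pairs of the same replicate number the knockout exceeded the control by 0.28, 0.19 and 0.10.

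Dusp1 encodes a nuclear phosphatase that switches MAP kinases off again, and is itself induced by them, so that it works as a brake. Its control arrays read 8.21, 8.27 and 8.34 and its knockout arrays 8.42, 8.35 and 8.47. The groups were again apart, by 0.016 at the nearest arrays. The difference was 0.14 ± 0.04 (SE; 95% interval 0.032 to 0.25), or 1.10-fold (limma adjusted p = 0.53, and 0.25 with the block), and the pairs gave 0.21, 0.083 and 0.13. Both genes were thus higher in 3 of 3 pairs, which was so for 15.7% of all genes and 20.8% of those above the upper quartile. Each kept a positive difference in every alternative run, with Egr1 between 0.16 and 0.25 and Dusp1 between 0.11 and 0.17. With all knockout arrays above all controls, leaving out any 1 array could not have reversed either sign. The block, the filters and the variance models leave the difference itself unchanged, so those runs do not test its direction.

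**Figure D1:**
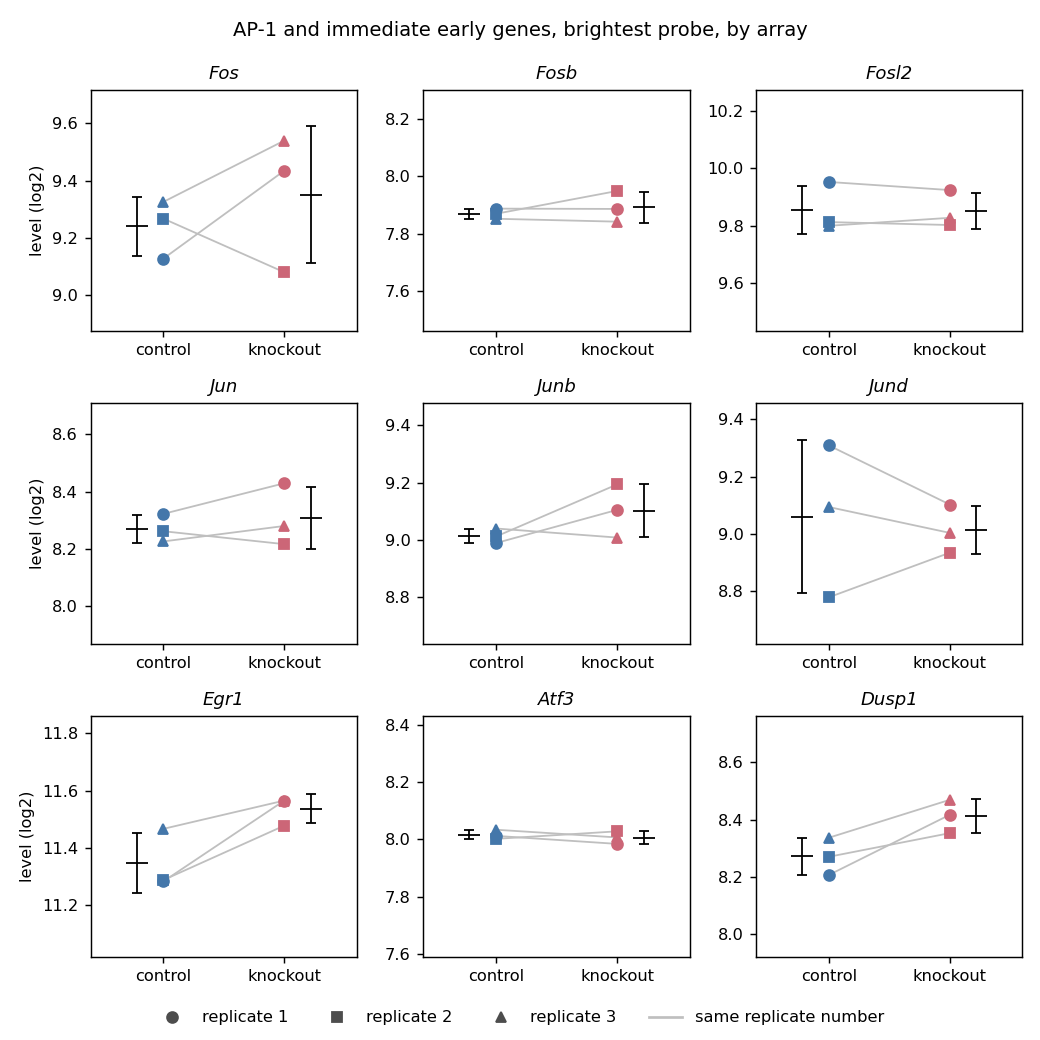
Level (log2) of each measured member on the 6 arrays, control in blue and knockout in red, with the marker shape giving the replicate number, grey lines joining equal numbers, and black bars showing mean ± SD (n = 3); every panel spans the same height. Only Egr1 and Dusp1 have all knockout points above all control points, while Fos and Jund spread most.

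Among the Fos proteins, Fos itself, the partner that gives Jun its strongest DNA binding, read 9.13, 9.27 and 9.33 on control arrays and 9.44, 9.08 and 9.54 on knockout arrays. Knockout replicates 1 and 3 lay above every control, and knockout replicate 2 was the lowest of all 6. The difference was 0.11 ± 0.13 (SE; 95% interval -0.20 to 0.42; limma adjusted p = 0.95), and the pairs gave 0.31, -0.19 and 0.21. Without knockout replicate 2 the difference was 0.25, and without knockout replicate 3 it was 0.017. The interval reaches from 0.873-fold to 1.34-fold.

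Fosl2, which encodes the Fos relative Fra-2, has 3 probes. The brightest, ILMN_1252481, read 9.95, 9.81 and 9.80 in control and 9.92, 9.80 and 9.83 in knockout arrays, which differed by -0.0036 ± 0.05 (SE; 95% interval -0.13 to 0.13; limma adjusted p = 1.00). The high value in each genotype belonged to replicate 1. The other probes sat at the lower end of the scale. ILMN_2718801 had group means of 7.92 and 7.90, and ILMN_2768924 of 7.87 and 7.82. The last had all 3 knockout arrays below all controls, by a mean of 0.048, and did not pass over all probes (limma adjusted p = 0.75). Read from brightest probes, 1115 of all 19057 genes had their knockout arrays below all controls.

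Fosb, a Fos relative that is usually induced with it, read 7.89, 7.87 and 7.85 in control and 7.89, 7.95 and 7.84 in knockout arrays, brighter than 52.7% of all probes. The difference of 0.023 ± 0.03 (SE; 95% interval -0.056 to 0.10; limma adjusted p = 0.97) became -0.0055 without knockout replicate 2, the highest array. At that level the array gives little room to see a lower value. The pair of E-box letters in the Fosb window therefore stands beside a gene whose signal was near the median of all probes in both genotypes.

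Among the Jun proteins, which can pair with each other as well as with Fos, Jun read 8.32, 8.26 and 8.23 in control and 8.43, 8.22 and 8.28 in knockout arrays. Replicate 1 was the highest in both genotypes. The difference was 0.039 ± 0.06 (SE; 95% interval -0.11 to 0.18; limma adjusted p = 0.97), and without knockout replicate 1 it was -0.022.

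Junb, a Jun relative with weaker activating power that can restrain Jun, had control values of 8.99, 9.01 and 9.04, the tightest control group among the members above the upper quartile (SD 0.025). Its knockout arrays read 9.10, 9.19 and 9.01. Replicates 1 and 2 of the knockout lay above all controls and replicate 3 lay among them, and the difference was 0.089 ± 0.05 (SE; 95% interval -0.031 to 0.21; limma adjusted p = 0.81). It was 0.14 without knockout replicate 3 and 0.043 without knockout replicate 2. Its second probe, ILMN_1254833, which was annotated through a different transcript, read 7.89 and 7.87 on average and had a difference of the opposite sign, -0.021, near the bottom of the scale.

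Jund, the Jun relative that is present in resting cells and least inducible, spread more widely over the 6 arrays than any other member. Its control arrays read 9.309, 8.779 and 9.094 and its knockout arrays 9.103, 8.935 and 9.004, so the knockout values lay wholly inside the control range. The difference was -0.047 ± 0.13 (SE; 95% interval -0.38 to 0.28; limma adjusted p = 0.99), and the pairs gave -0.21, 0.16 and -0.090. Without control replicate 1 it was 0.077.

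Atf3, a stress-induced member of the ATF family that also pairs with Jun, read 8.012, 8.002 and 8.033 in control and 7.984, 8.028 and 8.007 in knockout arrays. The 6 values spanned 0.049, the narrowest range among the members, and the difference was -0.0095 ± 0.02 (SE; 95% interval -0.063 to 0.044; limma adjusted p = 0.99). This level was brighter than 67.8% of all probes but below the upper quartile, where the scale is compressed, so the narrow interval cannot be read as a tight limit on the transcript.

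**Figure D2:**
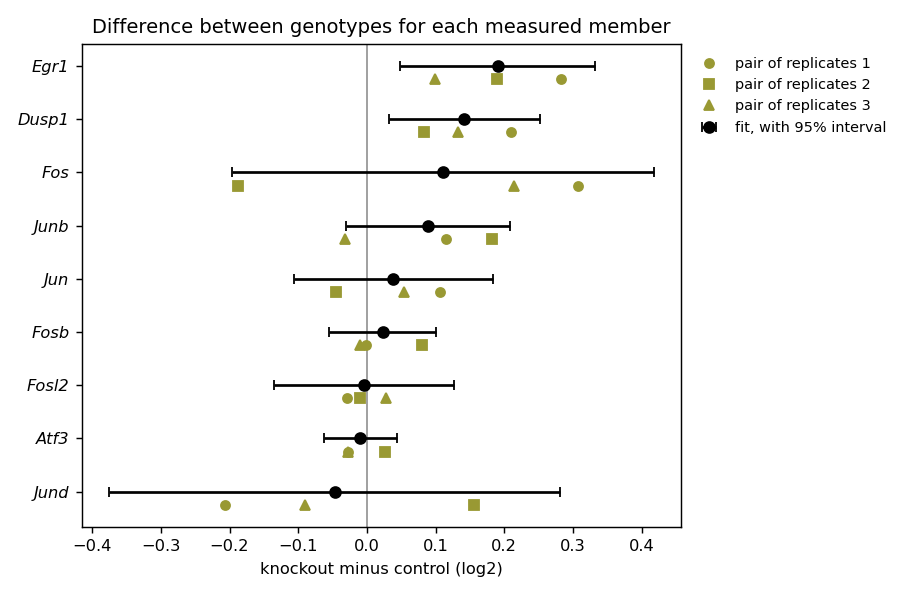
Knockout minus control (log2) for the 9 measured members, ordered by size, with black points and bars for limma's estimate and 95% interval without a block, and olive markers for the difference within each pair of equal replicate number. The intervals of Egr1 and Dusp1 lie above 0 before any adjustment for the number of genes tested; the widest, of Fos and Jund, run from -0.20 to 0.42 and from -0.38 to 0.28.

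The members differed in how much they varied between arrays of the same genotype. Among the 6969 genes above the upper quartile, the within-group SD of Jund (0.20) exceeded that of 93.9% of genes and that of Fos (0.18) exceeded 92.1%. The other 5 members above the quartile lay between 18.3% for Dusp1 (0.062) and 39.2% for Jun (0.084). Egr1 (0.082) lay at 37.0%. Dusp1 and Jun, with means of 8.34 and 8.29, lay only just above the cut of 8.27, towards the compressed end of the scale. How far this lowers their SD was not tested.

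**Figure D3:**
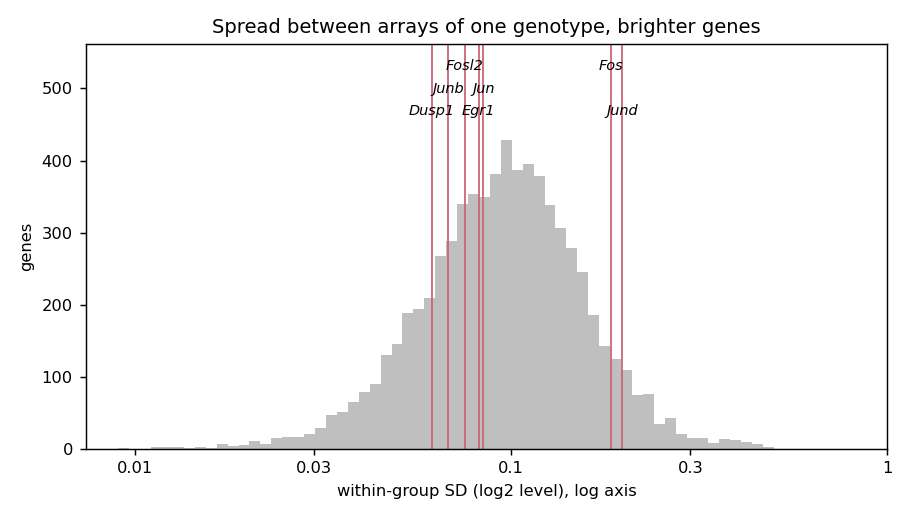
Histogram of the within-group SD (pooled over both genotypes, log2 level, log axis) of the 6969 genes above the upper quartile, with a red line for each of the 7 members among them. Fos (0.18) and Jund (0.20) lie in the right tail and the other 5, at 0.062 to 0.084, left of the peak.

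Both genotypes carry replicate numbers 1 to 3, and arrays of the same number deviated together over all genes. None of the 9 members passed limma's F test for replicate number (adjusted p under 0.05), as for 0% of all genes. At an unadjusted p under 0.05, 12.3% of all genes passed and 2 members did, Fosl2 (limma adjusted p = 0.29) and Jund (0.38). Both lie above the upper quartile, where 2118 of 6969 genes passed at that level. Mean levels of the numbers 1, 2 and 3 were 9.94, 9.81 and 9.81 for Fosl2 and 9.21, 8.86 and 9.05 for Jund. The range of these means was larger than the genotype difference for 6 of 9 members, beside 76.4% of all genes, and smaller for Egr1, Dusp1 and Junb. For Jund the range was 0.35 against a genotype difference of 0.047 in size.

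For the members that ranged most over the arrays, Jund and Fos, the genes nearest in pattern were found by the root mean square difference of centred profiles over the 6 arrays. Those nearest to Jund were Rflnb (0.030), Zdhhc7 (0.031), Mavs (0.039) and Dhrs11 (0.043), beside a root mean square of 0.16 for Jund around its own mean. These 4 were chosen for their likeness to Jund on these arrays, so they share its highest array, control replicate 1, and its lowest, control replicate 2. Those nearest to Fos were H2bc12 (0.056), Acta1 (0.070), Coq10b (0.074) and Txnip (0.075), beside 0.16 for Fos itself, so the match was looser. None of these 8 genes passed the test between genotypes (adjusted p 0.89 to 1.00, limma).

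The wider module was read from 7 further lists, with 158 genes measured of 179 listed. None passed over all genes (limma), while 21 had an unadjusted p under 0.05, 12 higher and 9 lower, beside 7.22% of all genes. With the replicate block none passed, and 22 higher and 14 lower had an unadjusted p under 0.05, beside 10.9% of all genes. Of the 158, 84 lay above the upper quartile. Of all 6969 genes above it, 580 higher and 459 lower reached that p without the block, and 979 and 818 with it. The median difference over the 158 was 0.010, against -0.00057 over all genes. In each list the 3 genes of lowest p are named.

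In a list of 24 genes, mostly of other immediate early transcription factors, the gene of lowest p was Bhlhe40, a circadian and hypoxia-responsive repressor. It read 11.18, 11.28 and 11.34 in control and 10.58, 10.80 and 10.85 in knockout arrays, so the groups lay 0.33 apart at their nearest arrays. The difference was -0.52 ± 0.08 (SE; 95% interval -0.72 to -0.32), 0.697-fold, with an adjusted p of 0.17 (limma) and 0.057 with the replicate block. It passed with limma's variance trend (adjusted p = 0.022) and when only genes above the upper quartile were tested (0.021). Being named for its low p in these same arrays favours the separation of its groups. All knockout arrays lay below all controls for 456 of the 6969 genes above the upper quartile. Id3, an inhibitor of helix-loop-helix factors, followed at -0.16 and Klf4, a factor of differentiated epithelium, at -0.062 (adjusted p = 0.68 and 0.72). The list's median was 0.0027, with 13 genes higher and 11 lower.

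Among the genes of 24 other bZIP proteins, only some of which can pair with Fos or Jun relatives, 8 were higher and 16 lower, with a median of -0.0095. Atf5, a factor of the amino acid and mitochondrial stress responses, read 11.71, 11.70 and 11.66 in control and 11.35, 11.38 and 11.45 in knockout arrays. These groups did not overlap, and the difference was -0.30 ± 0.03 (SE; 95% interval -0.38 to -0.22), with an adjusted p of 0.070 (limma) and 0.15 with the block. Atf5 was named for its low p in these same arrays, which favours such a separation. Of the 6969 genes above the upper quartile, 456 had all knockout arrays below all controls. Batf2 differed by -0.20 (adjusted p = 0.43) and Mafa, near the bottom of the scale, by -0.074 (0.52).

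MAP kinase genes lie upstream of the members. In the cascade list, 17 of 26 were higher and 9 lower, with a median of 0.030, and Map3k7 (TAK1), Map3k1 (MEKK1) and Nras differed by 0.11, 0.15 and 0.15 (adjusted p = 0.28, 0.34 and 0.35, limma). All 3 had their knockout arrays above their controls, as had 5 of the 26 in all and 6.2% of all genes. The 3 were named for their low p in these same arrays, which favours such a separation. Of 19 feedback genes, 14 were higher and 5 lower, with a median of 0.029. The dual-specificity phosphatase genes Dusp3 and Dusp16 differed by 0.16 and 0.19, and Spred2, an inhibitor of Ras signalling, by -0.10 (adjusted p = 0.51, 0.53 and 0.47).

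**Figure D4:**
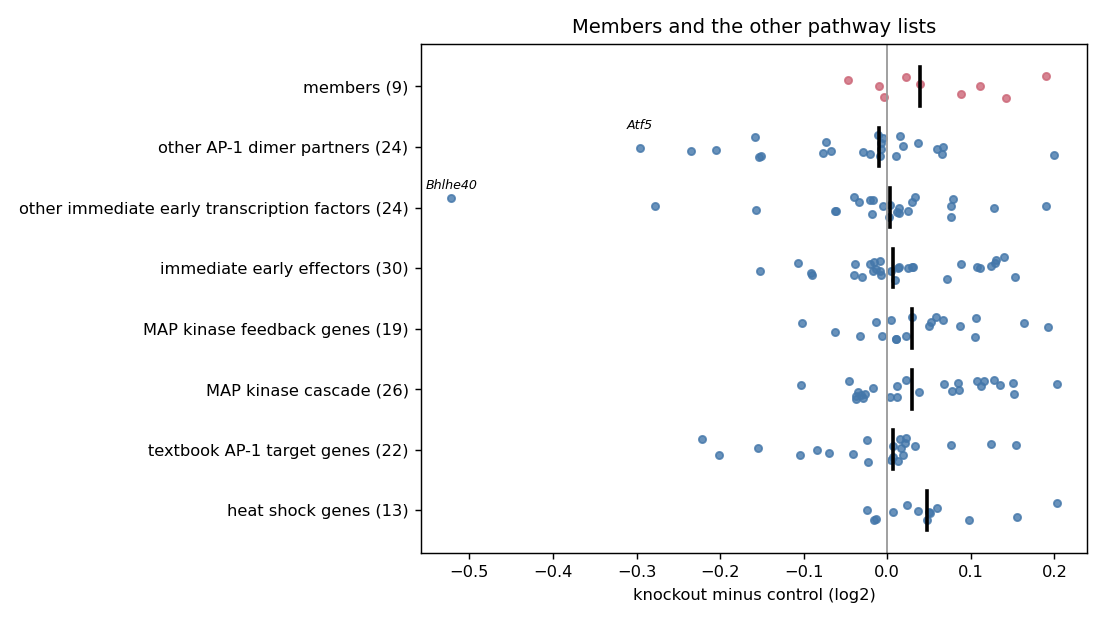
Knockout minus control (log2) for each measured gene of the members (red) and of the 7 other lists (blue), with black bars at the medians and the number of genes in brackets. Medians lie between -0.0095 and 0.048, and Bhlhe40 (-0.52) and Atf5 (-0.30) are the points farthest to the left.

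Downstream, 30 immediate early effectors were split 16 higher and 14 lower (median 0.0068). Cited2, a transcriptional coregulator, and Rhob, a small GTPase induced by stress, differed by 0.15 and 0.11, and the matrix protein gene Ccn2 by -0.091, near the bottom of the scale (adjusted p = 0.52, 0.61 and 0.58, limma). Among 22 textbook AP-1 target genes, 13 were higher and 9 lower (median 0.0064). Sprr1a, a cornified envelope gene, differed by -0.15, the adhesion receptor gene Cd44 by 0.12 and S100a6 by -0.22 (adjusted p = 0.57, 0.70 and 0.70).

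Heat shock genes, which also respond to handling, were 10 higher and 3 lower of 13 measured, with a median of 0.048 and none past the test. Hspa1b, at the bottom of the scale, differed by 0.048, the mitochondrial chaperonin gene Hspd1 by 0.15 and the co-chaperone gene Bag3 by 0.20 (adjusted p = 0.70, 0.88 and 0.88, limma). The list's mean level was 10.06 to 10.17 on control and 10.12 to 10.22 on knockout arrays, and the mean of the 7 members above the upper quartile 9.24 to 9.33 and 9.29 to 9.43. The part of handling in the values of Egr1 and Dusp1 was not tested.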

How the data were processed

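The authors deposited 1 table of log-scale values (base assumed to be 2, so log2) covering 45281 probes of 6 Illumina arrays. The labels' protocols give Trizol extraction, column clean-up with DNase and biotinylated cRNA. The sorted columns differed by at most 0.0019, so distributions had been equalised between arrays before deposit. For log base, background correction and software: not given in the sources used here. There are no detection calls. The number of arrays limits the precision.

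The platform annotation paired 34885 probes with 1 gene. Each of 19057 genes was represented by its brightest probe by mean over the 6 arrays, with no filter. Groups were compared with limma 3.58.1 in R 4.3.3 (lmFit, eBayes without trend, Benjamini-Hochberg over all genes), tested first on simulated data. Replicate numbers were taken as pairing the samples, since deviations from the group means correlated at r = 0.35, 0.33 and 0.46 for numbers 1, 2 and 3, while the labels do not say what a number shares. The fit without the block is the main one. The standard errors and intervals of single genes, and the choice of list genes named, therefore leave the pairing out. With the block, the interval was -0.25 to 0.15 for Jund and -0.069 to 0.062 for Fosl2, both narrower than without it. The other member intervals also narrowed, except those of Junb (-0.040 to 0.22) and Atf3 (-0.076 to 0.057), which widened. Named were all 10 members, the 3 genes of lowest p in each list, and the 4 genes nearest in pattern to the 2 members of widest range. Genes named for replicate number in the closing section were chosen after their values were seen. The members and lists were chosen with earlier results of these data known. The motifs TGACGT and TATAAA were added after the windows had been looked at. Alternatives covered the block, normalization, filters, probe averaging, the variance model, array weights and leaving out each array.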

Additional observations from a re-analysis of the deposited data

How the results depend on the processing

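Over the 142 alternatives run for single members, none brought a member past the threshold (lowest adjusted p 0.23, for Egr1 with the replicate block), and 135 kept the direction. Many of these could not have changed it, since the block, the filters and the variance models leave a member's difference as it is. Probe averaging does the same for members with 1 probe, so the 135 are no measure of stability. The 7 reversals each left out 1 array and concerned differences near 0. Over the arrays left out in turn, values ran from -0.0055 to 0.048 for Fosb, -0.040 to 0.045 for Fosl2, -0.022 to 0.085 for Jun, -0.19 to 0.077 for Jund and -0.020 to 0.0015 for Atf3. Fos, at 0.11, ran from 0.017 (without knockout replicate 3) to 0.25 (without knockout replicate 2). Junb, at 0.089, ran from 0.043 (without knockout replicate 2) to 0.14 (without knockout replicate 3) and was 0.034 as the mean of its probes. The median member difference moved to 0.089 when the genes below the upper quartile were left out, which drops Fosb and Atf3. It was 0.023 with array weights, and leaving out 1 array gave 0.017 (without control replicate 3) to 0.065 (without control replicate 1), beside 0.039 with all arrays. Of the other pathway genes, 1 of the 84 tested under that filter passed, Bhlhe40, and with a variance trend it was also the 1 of 158 that passed. Over all genes, 25 passed without the block and 9 with the replicate block, 41 of the genes above the upper quartile, 60 with the trend, and 4 to 23 with an array left out. For replicate number, 0 genes passed in the main setting, 2351 at an unadjusted p under 0.05, 393 among genes above the upper quartile and 277 with the trend. No member passed after adjustment in these settings. Under the filter and with the trend, Jund came nearest (adjusted p = 0.067 and 0.088). The cause of these shifts was not tested. Values near the lower end of the scale limit what can be seen for Fosb and Atf3.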

Other observations

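No gene of the 7 other lists passed the F test for replicate number as first fitted (limma), while 38 of 158 had an unadjusted p under 0.05, beside 12.3% of all genes. Of those 158, 84 lay above the upper quartile, and 2118 of all 6969 genes above it had such a p. With limma's variance trend, Id1, Ddit3, Vegfa, Il1rn, Mmp7 and Sprr2a1 passed the F test (adjusted p 4.6e-05 to 0.0087), 6 of 158 genes beside 277 of all 19057. When only genes above the upper quartile were tested, 12 of 84 passed beside 393 of 6969, these 6 and Gadd45g, Dusp6, Mt2, Krt18, Bag3 and Hspe1. The first 6 encode an inhibitor of helix-loop-helix factors, a stress-induced bZIP protein, an angiogenic growth factor, an interleukin-1 antagonist, a matrix protease and a small proline-rich protein, and none of the 12 passed the test between genotypes. They are named after their values were seen. Klf6 and Dusp6, likewise named afterwards, were lowest on the arrays numbered 2 in both genotypes. Other list genes went the other way, and Dusp4, Id1, Ddit3, Vegfa and Gadd45g were highest on those arrays in both genotypes. The share of all genes with either pattern is not given here, and signalling on those arrays was not tested. Klf6, an immediate early zinc-finger factor, read 11.06, 10.86 and 11.18 in control and 11.20, 11.07 and 11.40 in knockout arrays. Dusp6, an ERK phosphatase that follows ERK activity, read 10.15, 9.93 and 10.33 and then 10.14, 9.87 and 10.21.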
